A study of Mus musculus with 11 samples.

Results

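The 10 genes described here are feedback targets of beta-catenin, genes that canonical Wnt signalling switches on and that then act back on the pathway. They were chosen by symbol as Axin2, Lef1, Tcf7, Nkd1, Nkd2, Notum, Rnf43, Znrf3, Apcdd1 and Lgr5 for their known roles. All 10 were among the 24062 genes counted, and all 10 were among the 14025 genes tested between Sp3-/- and WT cells. The question was whether the higher Axin2 of Sp3-/- cells came with a rise of the other targets.

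RNA-seq was performed on mesenchymal cells of E15 mouse lungs (E, embryonic day) that had been isolated by adhesion to culture plastic and passaged at least once. The embryos came from timed matings of heterozygous mice carrying a germline mutation of Sp3, which encodes a zinc finger transcription factor of GC boxes. There were 4 WT libraries (Sp3+/+ in their labels), 4 Sp3+/- libraries and 3 Sp3-/- libraries, with no other treatment named in the labels. The labels do not say whether the libraries of a genotype came from separate embryos, so the p-values measure the spread between these libraries.

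In canonical Wnt signalling, Wnt proteins bind Frizzled and Lrp receptors, the cytoplasmic complex that degrades beta-catenin is held back, and beta-catenin enters the nucleus to act with TCF/LEF factors. Most of its feedback targets limit the pathway, at the receptor, in the extracellular space or in the degradation complex. In the fetal lung, canonical Wnt signalling supports growth and differentiation of the mesenchyme, and Axin2 is widely used as a reporter of it.

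Between 9849111 and 59297495 reads were counted on genes per library. A suffix (2, 3 or absent) closes each library title, and its meaning is not given in the sources used here. It was absent from all 3 Sp3-/- libraries, from WT library 468-4 and from Sp3+/- library 697-4, whose file name however carried a 2. The other 3 WT libraries and Sp3+/- libraries 685-5 and 685-7 had suffix 3, and Sp3+/- library 468-3 had suffix 2. Suffix and genotype were therefore nearly confounded. Sp3 itself measured 92.0, 60.7, 107 and 78.8 CPM (reads of a gene relative to all reads on genes, TMM scaled) in WT libraries 468-4, 685-2, 697-1 and 697-3. It measured 18.9, 18.3 and 14.4 CPM in Sp3-/- libraries 685-1, 697-2 and 697-5 and 51.8 to 71.6 CPM in the Sp3+/- libraries. The 12 markers of lung mesenchyme summed to 13160 to 22230 CPM in WT, 15140 to 22540 CPM in Sp3+/- and 7168 to 19190 CPM in Sp3-/- cells, and against WT 4 of them (Pdgfrb, Foxf1, Tbx5 and Vim) were called lower and 1 (Wnt2) higher. The 9 lymphocyte markers summed to at most 1.91 CPM in any library, with Lck at 4 to 60 reads and Cd3d, Cd3e, Cd3g and Ncr1 at 0 in 9 or more of the 11 libraries. In bulk RNA, fewer cells of a type and less RNA per cell cannot be told apart.

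Promoter windows are shown because Sp3 binds GC boxes and TCF/LEF factors bind their own core. RefSeq windows of 300 bases on GRCm38.p6, from 250 bases before to 50 after a transcript start, were found for 6 of the 10 members: Axin2, Lef1, Tcf7, Nkd1, Nkd2 and Rnf43, with 11 windows in all. The 3 windows printed are those of Axin2, Tcf7 and Nkd1. Axin2 was the only member that passed the test in Sp3-/- cells. Tcf7 had a GC box core and did not pass, and the Nkd1 window held no such core. Each window lies inside the span of its gene and is written 5′ to 3′ on the strand of the gene. GC box cores (GGGCGG or its complement CCGCCC) are in capitals. The genes of Axin2 and Nkd1 begin at bases 108917828 and 88521342, and the sequence before those bases was not searched. The windows lie at chr11:108920099-108920398 (plus strand), chr11:52282546-52282845 (minus strand) and chr8:88527383-88527682 (plus strand).
Axin2: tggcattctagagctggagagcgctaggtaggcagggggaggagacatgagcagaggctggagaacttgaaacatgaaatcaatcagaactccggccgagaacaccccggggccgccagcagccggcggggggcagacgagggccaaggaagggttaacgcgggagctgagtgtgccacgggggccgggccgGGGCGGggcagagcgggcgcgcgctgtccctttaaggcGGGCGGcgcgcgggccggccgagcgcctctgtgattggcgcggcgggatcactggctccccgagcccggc
Tcf7: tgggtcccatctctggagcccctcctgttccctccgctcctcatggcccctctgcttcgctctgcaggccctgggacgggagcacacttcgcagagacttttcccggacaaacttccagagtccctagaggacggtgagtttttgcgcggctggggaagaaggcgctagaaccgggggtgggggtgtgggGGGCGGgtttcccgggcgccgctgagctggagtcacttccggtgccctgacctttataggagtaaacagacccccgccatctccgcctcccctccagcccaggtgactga
Nkd1: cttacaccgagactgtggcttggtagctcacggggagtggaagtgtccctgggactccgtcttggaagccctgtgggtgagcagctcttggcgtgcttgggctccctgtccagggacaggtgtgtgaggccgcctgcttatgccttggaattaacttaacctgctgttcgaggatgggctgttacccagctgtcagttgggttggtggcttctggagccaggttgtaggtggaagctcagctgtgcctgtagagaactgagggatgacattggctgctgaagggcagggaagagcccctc

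The Axin2 window held 2 GC box cores, which began 58 and 20 bases before the start, and had 70.0% G and C. The printed Tcf7 window held 1, beginning 60 bases before its start. Another Tcf7 window, not printed, held 2, beginning 148 and 142 bases before its start. A GC box core was present in 6 of the 11 windows, among them a pair of overlapping Lef1 windows that hold the same core. By gene, it was present in 3 of the 6 members with a window (Axin2, Lef1 and Tcf7). Of all 32851 RefSeq promoter windows of this length, 35.7% held one on either strand, as did 38.2% of all genes. The TCF/LEF core ATCAAAG, or its complement CTTTGAT, was in 0 of the 11 windows and in 3.73% of all windows. No GC box core therefore overlapped a TCF/LEF core, and absence from a window says only that these letters are not there.

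Axin2, the scaffold protein of the beta-catenin degradation complex, was the only member that passed the test in Sp3-/- cells. The gene spans bases 108917828 to 108950783 of chromosome 11 (GRCm38.p6, plus strand). Axin2 measured 2.42, 2.87, 1.82 and 1.48 CPM in WT libraries 468-4, 685-2, 697-1 and 697-3, from 42 to 86 reads. Axin2 measured 3.61, 5.24, 3.42 and 4.41 CPM in Sp3+/- libraries 468-3, 685-5, 685-7 and 697-4. In Sp3-/- libraries 685-1, 697-2 and 697-5 Axin2 reached 19.5, 14.8 and 28.6 CPM, from 286 to 694 reads. The 3 genotypes formed 3 separate ranges with the Sp3+/- libraries in the middle. On the log2 CPM scale the means with their s.d. were 1.10±0.41 for WT (n=4), 2.06±0.28 for Sp3+/- (n=4) and 4.34±0.48 for Sp3-/- (n=3).

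Loss of both Sp3 copies went with 9.82-fold more Axin2 than in WT, with a 95% interval of 5.89 to 16.4-fold (log2 fold change 3.30, standard error 0.32, adjusted p = 0.00611, edgeR). It was 5.01-fold higher than in Sp3+/- cells, with an interval of 3.24 to 7.73-fold (log2 fold change 2.32, standard error 0.28, adjusted p = 0.00132, edgeR). The Sp3+/- level was 1.96-fold the WT level (interval 1.29 to 2.97, unadjusted p = 0.00486, edgeR), which did not pass after adjustment (adjusted p = 1, edgeR). These comparisons share libraries. Among libraries with the same first title number, the log2 CPM of Axin2 was 2.73 higher in Sp3-/- than in WT for 685 (1 library each) and 3.60 higher for 697 (2 libraries each). Against 468-4, the WT library without a suffix, the Sp3-/- mean was 3.03 higher on that scale. With the title suffix as a covariate, the log2 fold change was 3.18 against WT and 2.16 against Sp3+/- (adjusted p = 0.007 and 0.0278, edgeR). With the suffix of the file names instead, a choice made after the data were seen, it was 3.11 against WT (adjusted p = 0.0421, edgeR). Against Sp3+/- it was then 2.02 and lost its call (adjusted p = 0.475, edgeR), in a fit that called 0 of 14130 genes.

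Of the 10 feedback targets, 1 passed an adjusted p below 0.05 in Sp3-/- against WT cells, beside 18.5% of all genes tested. That 1 was Axin2, whose rise in these cells the authors had already reported and the question above took as given. Its call was therefore known beforehand, and no other member was called. The counts, the median and the shares of members given here include Axin2. Of all genes, 8.76% were called higher and 9.77% lower. Axin2 was also the only member whose WT and Sp3-/- libraries did not overlap, as was the case for 15.1% of genes that were higher and 16.2% that were lower. By direction alone, 6 members were higher and 4 were lower, and their median log2 fold change was 0.31 against -0.0032 over all genes tested. Notum, among the higher, entered the fit only through Sp3-/- libraries. With the title suffix as a covariate 8 were higher and 2 lower. At an unadjusted p below 0.05 there were 3 members (Axin2, Notum and Apcdd1), or 30%, beside 37.6% of all genes. Of the 9 members other than Axin2, 8 had an interval whose upper bound lay below the lower bound of the Axin2 interval, the exception being Notum.

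**Figure D1:**
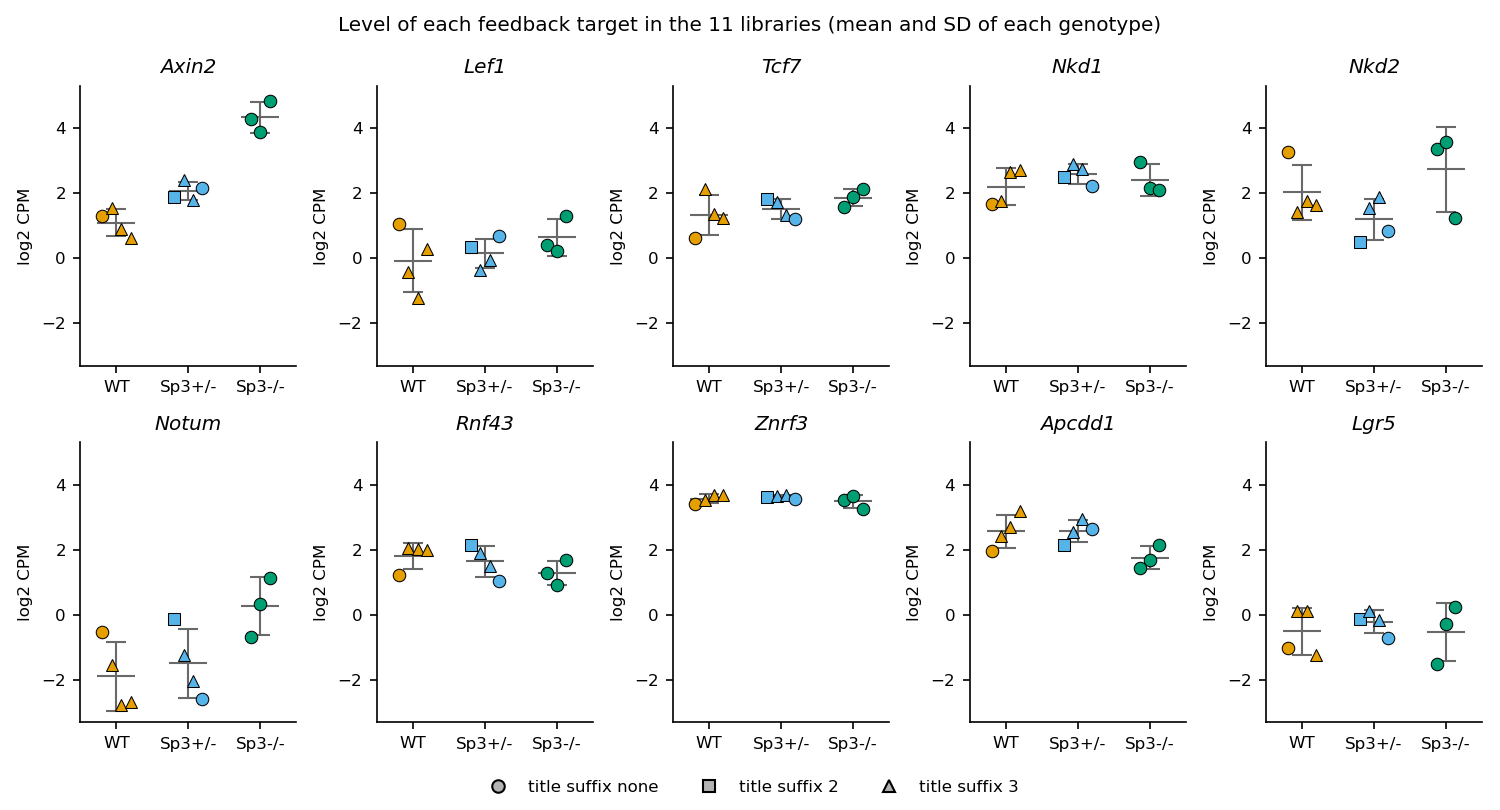
Level of each feedback target in log2 CPM (vertical axis) for the 4 WT, 4 Sp3+/- and 3 Sp3-/- libraries (horizontal axis). Each symbol is a library, shaped by its title suffix, and bars give the mean and SD of the genotype. The Sp3-/- libraries stand above all others for Axin2, whereas in the other 9 panels Sp3-/- and WT overlap.

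Notum and Apcdd1, which act outside the cell and at its surface, came closest to the threshold in this comparison, in opposite directions. Notum encodes a secreted enzyme that removes the lipid from Wnt proteins. Notum measured 0.618, 0.273, 0.0809 and 0.0889 CPM in WT libraries 468-4, 685-2, 697-1 and 697-3, from 22, 4, 2 and 3 reads. In Sp3+/- libraries 468-3, 685-5, 685-7 and 697-4 Notum measured 0.850, 0.359, 0.179 and 0.0991 CPM. In Sp3-/- libraries 685-1, 697-2 and 697-5 Notum measured 0.560, 1.196 and 2.10 CPM, from 20, 53 and 21 reads. The highest WT library, 468-4, lay above the lowest Sp3-/- library, and all levels rested on few reads. Only Sp3-/- libraries 697-2 and 697-5 exceeded 1 CPM, the level a gene needed in 1 library to be tested. Notum was therefore tested only through the group where it was high, and its fold changes and p-values carry that selection. The fold change of Notum was 4.46, with a 95% interval of 1.26 to 15.8 (unadjusted p = 0.026, adjusted p = 0.0877, edgeR). Without WT library 468-4 the log2 fold change was 3.18 rather than 2.16 and passed the threshold (adjusted p = 0.0214, edgeR).

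Apcdd1, a membrane glycoprotein that inhibits Wnt signalling, measured 3.79, 5.33, 6.39 and 8.98 CPM in WT libraries 468-4, 685-2, 697-1 and 697-3. In Sp3+/- libraries 468-3, 685-5, 685-7 and 697-4 Apcdd1 measured 4.32, 5.79, 7.66 and 6.20 CPM, and in Sp3-/- libraries 685-1, 697-2 and 697-5 it measured 2.66, 3.14 and 4.31 CPM. The Sp3-/- libraries overlapped with WT through 468-4, and lay just below all Sp3+/- libraries. The fold change of Apcdd1 against WT was 0.542, with a 95% interval of 0.313 to 0.940 (unadjusted p = 0.0336, adjusted p = 0.104, edgeR). Without 468-4 the log2 fold change was -1.07 and passed the threshold (adjusted p = 0.0349, edgeR). Against Sp3+/- cells it was 0.553, with an interval of 0.343 to 0.891 (adjusted p = 0.0661, edgeR). There Apcdd1 passed in DESeq2 (adjusted p = 0.0334), in limma-voom without and with a consensus correlation (0.0428 and 0.045) and in edgeR with the first title number as a replicate block (0.0203).

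Rnf43 and Znrf3 encode transmembrane ubiquitin ligases that clear Frizzled receptors from the cell surface, and Lgr5 encodes an R-spondin receptor that acts with them. Rnf43 measured 2.25 CPM in WT library 468-4 and 3.88 to 4.03 CPM in the other 3 WT libraries. Rnf43 ranged from 1.98 to 4.32 CPM in Sp3+/- cells and measured 2.35, 1.81 and 3.10 CPM in Sp3-/- libraries 685-1, 697-2 and 697-5. The Sp3-/- libraries lay below every WT library with a suffix, but 468-4 lay among them. The fold change was 0.673, with a 95% interval of 0.405 to 1.12 (adjusted p = 0.226, edgeR). Znrf3 varied least of the members, with 10.4 to 12.8 CPM in WT, 11.6 to 12.7 CPM in Sp3+/- and 9.51 to 12.5 CPM in Sp3-/- cells. The Znrf3 fold change of 0.943 had an interval of 0.745 to 1.19 (adjusted p = 0.703, edgeR). Lgr5 was low throughout, at 10 to 60 reads per library, and its interval of 0.358 to 2.66-fold (adjusted p = 0.972, edgeR) includes 2-fold changes in either direction.

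Nkd1 and Nkd2 encode Naked cuticle proteins, which bind Dishevelled in the cytoplasm. Nkd2 measured 9.60, 2.60, 3.36 and 3.05 CPM in WT libraries 468-4, 685-2, 697-1 and 697-3 and 1.35, 2.87, 3.66 and 1.74 CPM in Sp3+/- libraries 468-3, 685-5, 685-7 and 697-4. In Sp3-/- libraries 685-1, 697-2 and 697-5 Nkd2 measured 10.2, 12.0 and 2.30 CPM. High values were thus found in 2 Sp3-/- libraries and in 1 WT library, 468-4, and the ranges overlapped. The fold change of Nkd2 against WT was 1.76, with a 95% interval of 0.636 to 4.86 (adjusted p = 0.38, edgeR). Against Sp3+/- cells it was 3.36, with an interval of 1.36 to 8.32, just short of the threshold (adjusted p = 0.0519, edgeR), which it passed without Sp3-/- library 697-5 (adjusted p = 0.0251, edgeR). Nkd1 ranged from 3.09 to 6.58 CPM in WT, from 4.61 to 7.46 CPM in Sp3+/- and from 4.21 to 7.73 CPM in Sp3-/- cells. Its fold change against WT was 1.12, with an interval of 0.621 to 2.04 (adjusted p = 0.767, edgeR).

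Lef1 and Tcf7 encode DNA-binding partners of beta-catenin. Lef1 ranged from 0.364 to 1.99 CPM in WT, from 0.717 to 1.54 CPM in Sp3+/- and from 1.11 to 2.403 CPM in Sp3-/- cells, with the highest WT value in 468-4. Tcf7 ranged from 1.49 to 4.31 CPM in WT, from 2.23 to 3.47 CPM in Sp3+/- and from 2.94 to 4.31 CPM in Sp3-/- cells. Neither separated the genotypes. The fold change was 1.43 for Lef1, with a 95% interval of 0.554 to 3.69 (adjusted p = 0.551, edgeR). It was 1.37 for Tcf7, with an interval of 0.751 to 2.51 (adjusted p = 0.405, edgeR).

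**Figure D2:**
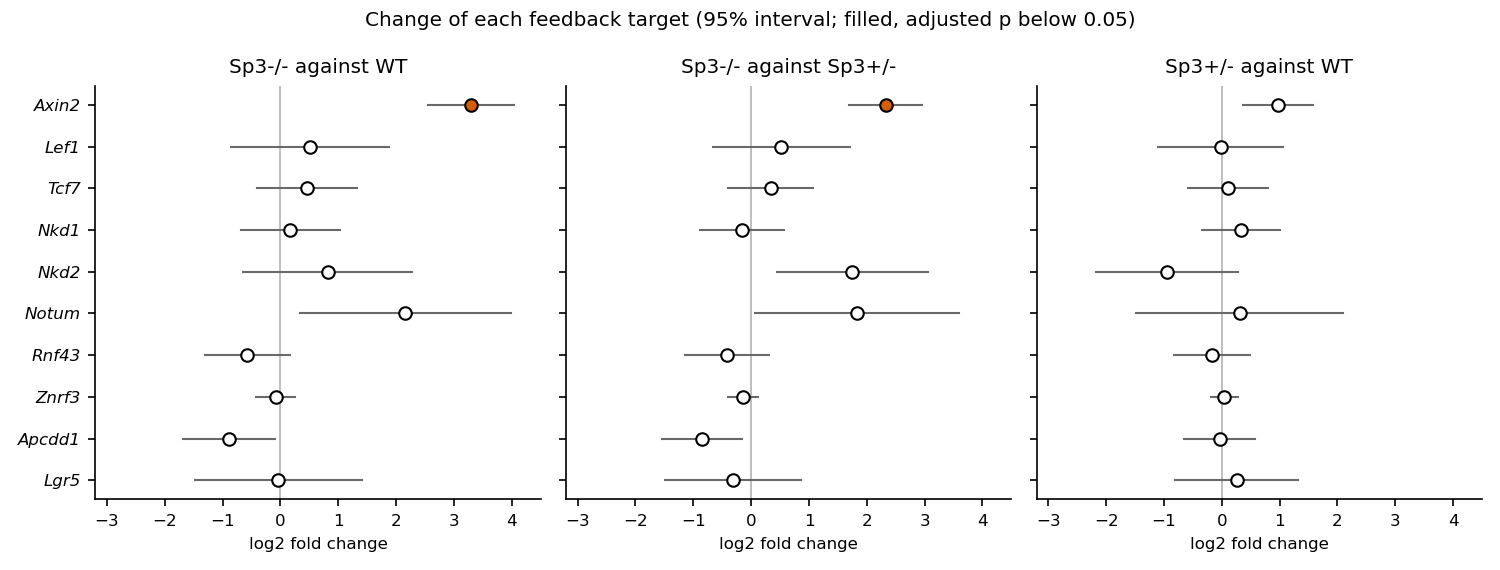
Log2 fold change (horizontal axis) of the 10 feedback targets in the 3 comparisons, which share libraries. Points are edgeR estimates, lines 95% intervals, and filled points have an adjusted p below 0.05. Axin2 is filled against WT (3.30) and against Sp3+/- (2.32), and no other point is.

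Against Sp3+/- cells, which share the Sp3-/- libraries with the comparison above, again 1 of the 10 members was called in Sp3-/- cells, beside 25.5% of all genes tested. This was Axin2, whose rise in Sp3-/- cells was known beforehand, and 13% of all genes were called higher. Libraries did not overlap for Axin2 (higher, as for 16.4% of genes) and Apcdd1 (lower, as for 17.7%). The median log2 fold change of the members was 0.10 against 0.00020 over all genes. At an unadjusted p below 0.05 there were 4 members (Axin2, Nkd2, Notum and Apcdd1), or 40%, beside 39.5% of all genes. Between Sp3+/- and WT cells, edgeR called 0 of the 10 members and 0 of 14130 genes, as did DESeq2 and limma-voom. At an unadjusted p below 0.05 there were 246 genes (1.74%), of which Axin2 was the only member. Axin2 was also the only member whose Sp3+/- and WT libraries did not overlap, which held for 0.694% of genes in the same direction.

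Among libraries with the same first title number, 6 of the 10 members had the same direction from WT to Sp3-/- cells in 685 (1 library each) and in 697 (2 each), as did 77.1% of all genes tested. Axin2, Lef1, Nkd2 and Notum were higher in both, and Rnf43 and Apcdd1 lower in both. Tcf7, Nkd1, Znrf3 and Lgr5 went opposite ways. Nkd1, for example, was 1.19 higher in 685 and changed by -0.58 in 697 on the log2 CPM scale. WT library 468-4 lay inside the Sp3-/- range for 7 of the 10 members and for 41.9% of all genes tested. The other 3 WT libraries did so for 3 or 4 members and for 27.5% to 29.9% of genes, and the 4 Sp3+/- libraries for 4 to 6 members and for 29.1% to 40.4%. Axin2 was among the 3 members for which 468-4 did not.

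**Figure D3:**
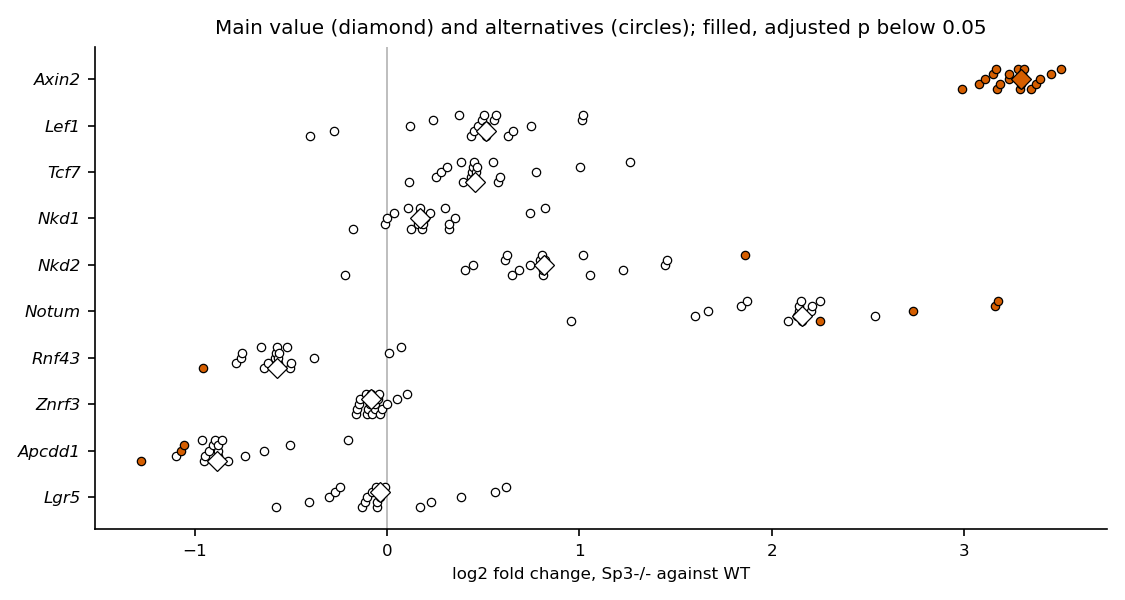
Log2 fold change of each member in Sp3-/- against WT cells (horizontal axis) in the analysis as reported (diamond) and in 19 alternatives (circles), filled where the adjusted p was below 0.05. Axin2 stayed between 2.99 and 3.50 and was called in all 19, and Notum, Apcdd1, Nkd2 and Rnf43 were called in some.

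To compare levels between genes, CPM was divided by the length in kb of each gene's canonical transcript in GENCODE vM39, which is not the annotation the reads were counted on. In WT cells Axin2 ranked 7 of the 10, at 0.485±0.139 CPM per kb (s.d., n=4). Znrf3 (1.85±0.180), Nkd1 (1.56±0.601) and Nkd2 (1.16±0.825) led, and Lgr5 (0.149±0.0773) and Notum (0.0948±0.0898) were last. Each neighbouring pair in this order overlapped between WT libraries. In Sp3+/- cells Axin2 ranked 3, at 0.942±0.188 CPM per kb (s.d., n=4), below Nkd1 and Znrf3. In Sp3-/- cells it ranked 1, at 4.74±1.59 CPM per kb (s.d., n=3), with its lowest library (3.34) above the highest of Nkd2 (2.99), which came next. The remaining order in Sp3-/- cells was Nkd1, Znrf3, Tcf7, Lef1, Rnf43, Notum, Apcdd1 and Lgr5. There, Znrf3 did not overlap with Tcf7, nor Apcdd1 with Lgr5, and the other neighbours overlapped.

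The 5 genes whose pattern over the 11 libraries was nearest that of Axin2, by the root mean square difference of centred log2 CPM among 14129 genes, were Lgi2 (0.388), Podxl (0.393), Rab6b (0.399), Ddo (0.3995) and Fgf1 (0.414). Of the members, Notum came nearest, at rank 430 (0.908), followed by Tcf7 at rank 2113 and Lef1 at rank 2329. Notum was ranked only because Sp3-/- libraries exceeded 1 CPM, and its pattern rests on 2 to 53 reads per library. The other 6 members ranked between 8273 and 12530, with Apcdd1 last.

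Ctnnb1, which encodes beta-catenin, was higher in Sp3-/- cells by 1.38-fold (95% interval 1.11 to 1.71, adjusted p = 0.0488, edgeR). It measured 1027 CPM in 468-4, the WT library without a title suffix, and 868 to 953 CPM in the other WT libraries. Sp3-/- libraries 685-1, 697-2 and 697-5 had 1128, 1332 and 1392 CPM of Ctnnb1. WT and Sp3-/- libraries thus did not overlap, as was the case for 15.1% of genes that were higher. Among the other cytoplasmic genes of the pathway, 19 with Ctnnb1 included, Dact3, which encodes a Dishevelled-binding protein, was lower (log2 fold change -1.03, adjusted p = 0.013, edgeR). Dact3 measured 27.0 CPM in 468-4 and 24.1 CPM in Sp3+/- library 697-4, both without a title suffix. The other WT and Sp3+/- libraries had 37.6 to 42.4 CPM of Dact3, and the Sp3-/- libraries 16.3 to 19.3 CPM. The part of the suffix in this change was not tested. No other gene of that list passed, and Axin1, the paralog of Axin2, had a log2 fold change of 0.047 (adjusted p = 0.763, edgeR). The median of the 19 was 0.0020.

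Of 20 further genes known as Wnt targets in other tissues, 13 were abundant enough to be tested in Sp3-/- against WT cells, and 2 were called higher and 2 lower. Their median log2 fold change was -0.23. Bambi, a pseudoreceptor of TGF-beta signalling, was higher by 1.22 and Tnfrsf19, a receptor of the TNF family, by 0.91 on the log2 scale (adjusted p = 0.0277 and 0.0298, edgeR). Myc was lower, with a log2 fold change of -0.64, and so was the receptor gene Fzd7, with -0.48 (adjusted p = 0.0317 and 0.034, edgeR). The other 9 did not pass, with log2 fold changes from -1.13 (Ephb2) to 0.65 (Id2). The genes not tested because they were below 1 CPM in each library of the fit were Sp5, Dkk1, Dkk4, Wif1, Ascl2, Cdx1 and Mmp7.

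Upstream of beta-catenin, genes of receptors and secreted proteins were called in both directions. Of 16 receptor genes tested, 3 were called lower (Fzd7, Ror1 and Ror2) and 0 higher, and the list median was -0.35. Ror2 and Ror1, receptors of non-canonical Wnt5a signalling, changed by -2.95 and -1.73 on the log2 scale (edgeR adjusted p = 0.015 and 0.0453). Ror2 measured 7.67 CPM in WT library 468-4 and 5.55 CPM in Sp3+/- library 697-4, both without a title suffix. The other WT and Sp3+/- libraries had 16.2 to 29.1 CPM of Ror2, and the Sp3-/- libraries 1.96 to 3.18 CPM. For Ror1 the genotypes overlapped, with 2.53 CPM in 468-4 and 2.55 CPM in Sp3-/- library 697-2. Of 14 genes of ligands and their secretion tested, 3 were called higher and 3 lower. The R-spondin Rspo2, a ligand of Lgr receptors, had the largest fall among these lists (log2 fold change -4.22, adjusted p = 0.00887, edgeR). Wnt16 had a log2 fold change of -2.82 (adjusted p = 0.00764, edgeR), and Wnt2, a mesenchymal ligand of the fetal lung, one of 2.12 (adjusted p = 0.0355, edgeR). Rspo2 measured 5.16 CPM in 697-4 and 25.2 to 33.5 CPM in the other Sp3+/- libraries. Wnt2 measured 8.33 CPM in 697-4 and 8.32 CPM in Sp3-/- library 685-1. Wnt16 measured 2.98 CPM in 468-4 and 4.07 CPM in 697-4, beside 3.76 to 4.74 CPM in the other WT and Sp3+/- libraries. The part of the suffix in these changes was not tested. Of 7 secreted antagonists tested, all were lower by value and Frzb passed (log2 fold change -2.17, adjusted p = 0.0153, edgeR). Of 12 nuclear partners, 3 were called lower and 0 higher, namely Tle1 (-0.97), Tle2 (-1.61) and Tcf7l1 (-0.93), which encode repressors of TCF/LEF targets (adjusted p = 0.0121, 0.0183 and 0.0378, edgeR). Tcf7l1 measured 17.72 CPM in 468-4, 17.65 CPM in 697-4 and 17.04 CPM in Sp3-/- library 685-1. The other WT and Sp3+/- libraries had 23.5 to 28.8 CPM of Tcf7l1. Tle1 (53.9 and 42.6 CPM), Tle2 (6.77 and 6.94) and Frzb (3.51 and 3.32) were also lower in 468-4 and 697-4 than in any other WT or Sp3+/- library. The part of the suffix was not tested here either.

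Over the 6 lists together, 18 of 80 pathway genes tested passed in Sp3-/- against WT cells (22.5%, beside 18.5% of all genes), 6 higher and 12 lower (median log2 fold change -0.23). Against Sp3+/- cells 20 of the 80 passed (25%, beside 25.5%), 4 higher and 16 lower. Between Sp3+/- and WT cells 0 passed in edgeR. Ctnnb1, Bambi, Dact3, Tle1, Tle2, Tcf7l1, Ror1, Ror2, Fzd7, Rspo2, Wnt16 and Frzb were called in the same direction against Sp3+/- as against WT, whereas Tnfrsf19 (0.19), Myc (-0.44) and Wnt2 (1.49) were not called there (adjusted p = 0.663, 0.103 and 0.0706, edgeR).

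**Figure D4:**
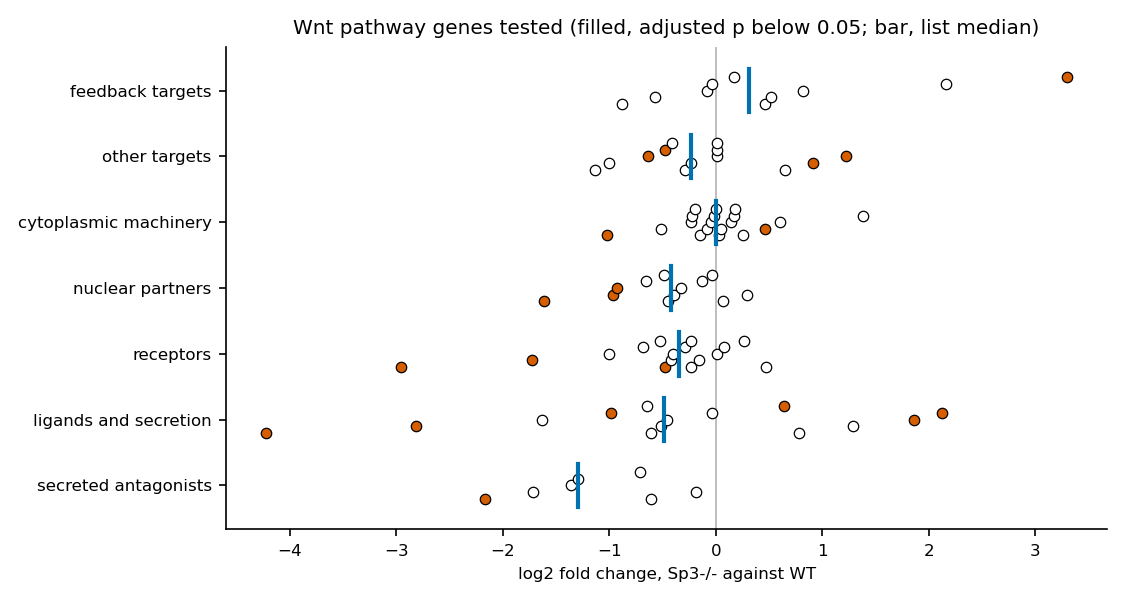
Log2 fold change of Wnt pathway genes in Sp3-/- against WT cells (horizontal axis), by list (rows). Each circle is a gene tested, filled where the adjusted p was below 0.05, and bars mark the list medians. Filled circles lie on both sides of 0 among other targets, cytoplasmic machinery and ligands, and only on the lower side among receptors, nuclear partners and secreted antagonists.

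Markers of other cell types differed between the same libraries. The summed level of 7 mesothelial markers was 723 to 1769 CPM in WT, 1490 to 2641 CPM in Sp3+/- and 2108 to 6111 CPM in Sp3-/- cells, and edgeR called 3 of the 7 (Wt1, Msln and Upk1b) higher in Sp3-/- cells against WT. None of the 7 was at 0 in any library, and the sums of Sp3+/- and Sp3-/- libraries overlapped. The 10 macrophage markers summed to 622 to 3248 CPM in WT, 368 to 3088 CPM in Sp3+/- and 3141 to 11690 CPM in Sp3-/- cells, with 5 of 10 called higher against WT. Their sum followed the title suffix too, with 3248 CPM in WT library 468-4 and 3088 CPM in Sp3+/- library 697-4, both without one, and 368 to 900 CPM in the other 6 WT and Sp3+/- libraries. The 6 smooth muscle markers summed to 11560 to 25430 CPM in WT and 4007 to 5015 CPM in Sp3-/- cells, with 5 of 6 called lower. Epithelial markers summed to at most 48.4 CPM in WT and 52.7 to 178 CPM in Sp3-/- cells. Of the 7 tested, 3 (Epcam, Cdh1 and Krt18) were called higher. Epcam reached at most 1.2 CPM and Cdh1 at most 5.91 CPM in any library, with log2 fold changes of 3.12 and 4.81. Epcam and Cdh1 therefore entered the fit only through Sp3-/- libraries, and their calls carry that selection. By value 5 of the 7 were higher and 2 lower, namely Sftpc (log2 fold change -4.72) and Nkx2-1 (-1.855), each at 0 reads in 3 libraries. The sum was mostly keratins, with means over all libraries of 33.7 CPM for Krt18, 13 for Krt19 and 7.77 for Krt8. Krt19 was also on the mesothelial list. The part of these differences in the change of Axin2 or of the other members was not tested.

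**Figure D5:**
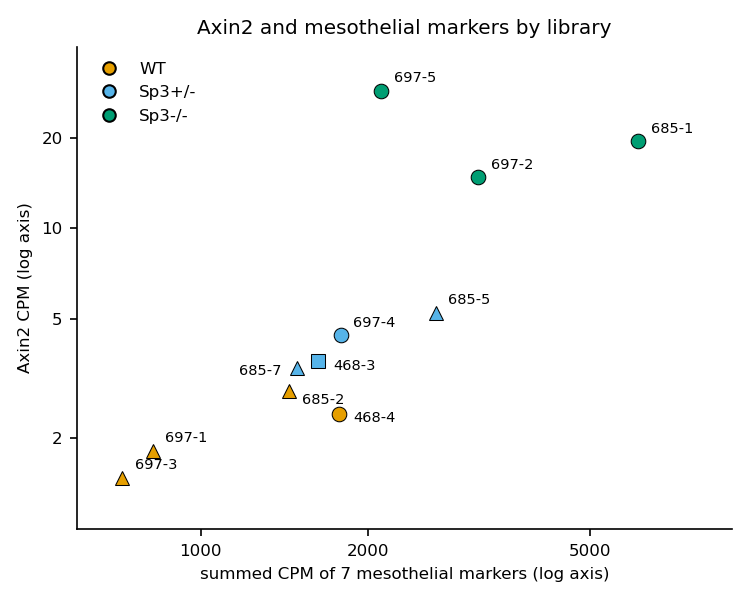
Axin2 level in CPM (vertical log axis) against the summed CPM of 7 mesothelial markers (horizontal log axis) in the 11 libraries, coloured by genotype and shaped by title suffix (circle none, square 2, triangle 3). Sp3-/- libraries lie at 14.8 to 28.6 CPM of Axin2, and the others at 1.48 to 5.24 CPM. The marker sums of the genotypes are 723 to 1769, 1490 to 2641 and 2108 to 6111 CPM. Sp3-/- libraries 697-5, 697-2 and 685-1 have marker sums of 2108, 3153 and 6111 CPM and Axin2 levels of 28.6, 14.8 and 19.5 CPM. Sp3+/- library 685-5 has a marker sum of 2641 CPM and 5.24 CPM of Axin2.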

How the data were processed

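The authors prepared TruSeq libraries, sequenced 50 bp single end reads, checked them with FastQC 0.10.1, aligned them to mm10 with STAR 2.4.5a and counted reads per gene with htseq-count. The deposited values are whole-number counts per gene symbol, without normalization. The annotation version and strand setting are not given in the sources used here. The 5 tallies of reads outside genes, 38.4% to 40.9% of each library, were left out.

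A gene entered a fit when its CPM exceeded 1 in 1 or more of the fitted libraries. Differences were tested by edgeR 4.0.16 (TMM, estimateDisp, robust glmQLFit, glmQLFTest) in R 4.3.3, with Benjamini-Hochberg adjustment over all genes tested. WT against Sp3-/- used their 7 libraries, and comparisons with Sp3+/- used all 11. Log2 CPM used a prior count of 2. Intervals are 95% t intervals from the standard error implied by the test. Groups were taken from the genotype labels. The depth of 9849111 to 59297495 reads limits the precision of the members with few reads. Alternatives were DESeq2 1.42.0, limma-voom (limma 3.58.1), other normalizations, filters, samples and covariates, and single libraries left out. The procedure was tested on simulated data. For Sp3-/- against WT it recovered 44 of 100 genes changed by 2-fold and 81 of 100 changed by 4-fold. A member that was not called could still have changed by 2-fold where its 95% interval includes such a change. The interval of Znrf3 (0.745 to 1.19-fold) does not. The members, the gene lists and the markers were chosen with earlier results of these data known. Genes named are the members, Sp3, Ctnnb1, up to 3 called genes per list, and the 5 nearest Axin2 in pattern. Others (Axin1, Ephb2, Id2 and single markers) were chosen after their values were seen. Coordinates and promoters are from RefSeq on GRCm38.p6.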

Additional observations from a re-analysis of the deposited data

Results flagged for a closer look

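Rnf43 in WT cells was the 1 case, among the 20 groups of 4 libraries tested over the 10 members, in which a library lay far from the rest of its genotype. WT library 468-4 measured 1.21 log2 CPM, and the next lowest WT library 1.98, a gap that was 0.935 of the whole WT range, above Dixon's 95% critical value for 4 libraries. Chance flags about 1 in 20 groups. This library is the only WT library without a title suffix, and without it the log2 fold change of Rnf43 in Sp3-/- against WT cells was -0.75 (adjusted p = 0.0738, edgeR) instead of -0.57 (adjusted p = 0.226, edgeR).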

How the results depend on the processing

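In Sp3-/- against WT cells 1 member was called, beside 18.5% of all genes tested. DESeq2 called 2 (Axin2 and Notum), beside 30.7% of all genes. The first title number as a replicate block gave 3 (Axin2, Notum and Apcdd1), beside 28.7%. Leaving out single libraries gave 1 to 3, with 3 (Axin2, Notum and Apcdd1) without 468-4, beside 29.9%. Leaving out both 468-4 and 697-5, a choice made after seeing the data, gave 5 (Axin2, Nkd2, Notum, Rnf43 and Apcdd1), beside 27.1%. Against Sp3+/- cells 1 was called, beside 25.5% of all genes. DESeq2, limma-voom and limma-voom with a consensus correlation each called 3 (Axin2, Nkd2 and Apcdd1), beside 32.9%, 26.2% and 26.1%. The replicate block called 4 (these and Notum), beside 20.9%. Leaving out single libraries gave 1 to 2, with 2 (Axin2 and Nkd2) without 697-5, beside 17.2%. The file name suffix as a covariate, also chosen after seeing the data, gave 0, beside 0% of all genes. Between Sp3+/- and WT every alternative called 0 members. The labels do not say that the first title number marks a shared litter, and its consensus correlation was 0.106 in the 7 WT and Sp3-/- libraries and -0.0092 in all 11. The number of genes called in Sp3-/- against WT ranged from 163 with the file name suffix to 4297 in DESeq2, beside 2599, and was 282 without 697-2. Against Sp3+/- cells it ranged from 0 with that covariate to 4633 in DESeq2, beside 3607.

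Uncalled members changed direction as follows, as log2 fold changes. In Sp3-/- against WT, the title suffix as a covariate gave Lef1 -0.27, Lgr5 0.56, Rnf43 0.011 and Znrf3 0.051. The file name suffix gave Lef1 -0.40, Lgr5 0.62, Nkd2 -0.22, Rnf43 0.071 and Znrf3 0.10. Against 468-4 alone, with no test and so no count of calls, Lef1 was -0.40, Lgr5 0.50, Nkd2 -0.54, Rnf43 0.072 and Znrf3 0.094. The replicate block gave Nkd1 -0.011. Against Sp3+/-, the title suffix gave Lef1 -0.21, Lgr5 0.28, Nkd1 0.32 and Rnf43 0.30, and the file name suffix Lef1 -0.48, Lgr5 0.38, Nkd1 0.47, Nkd2 -0.31, Notum -0.076, Rnf43 0.40 and Znrf3 0.087. In Sp3+/- against WT, Apcdd1 was 0.062 in limma-voom, 0.059 with the consensus correlation, 0.079 with the replicate block and 0.155 with the title suffix, Lef1 was 0.003 in DESeq2, 0.25 with the block and 0.078 with the file name suffix, and that suffix gave Nkd2 0.092 and Tcf7 -0.098. Leaving out single libraries, the members that changed direction ranged as follows. In Sp3-/- against WT, Lgr5 ranged from -0.41 to 0.38, Nkd1 from -0.18 to 0.35 and Znrf3 from -0.16 to 0. Against Sp3+/-, Lgr5 ranged from -0.68 to 0.12. In Sp3+/- against WT, Apcdd1 ranged from -0.20 to 0.21, Lef1 from -0.30 to 0.50, Notum from -0.27 to 1.35, Tcf7 from -0.078 to 0.43 and Znrf3 from -0.0030 to 0.086. The cause of these moves was not tested. Axin2 kept its direction in every alternative run. With the upper quartile in place of TMM the median of all genes in Sp3-/- against WT was -0.071 rather than -0.0032.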
